A study of Xenopus laevis with 6 samples.

Results

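Potassium channel genes were compared between Xenobots, self-propelled bodies that form from explanted frog ectoderm, and intact Xenopus laevis embryos of the same age. The genes were taken by symbol alone, as every row of the gene table whose symbol begins with kcn and a further letter or with hcn and a digit, which gave 122 of 42638 genes. The 3 Xenobot pools each held 50 wild-type, untreated Xenobots, made by cutting the ectodermal animal cap out of stage 9 embryos and letting it heal at 14 °C in 0.75X Marc's Modified Ringer's (MMR, a salt solution) until day 7. The 3 embryo pools each held 10 wild-type, untreated whole embryos of stage 35, kept at 14 °C for 7 days in 0.1X MMR. Ectoderm-derived tissue and whole body, as well as the higher and the lower salt concentration, therefore go with the groups and cannot be told apart. The methods describe the replicates of all experiments in general as samples from separate batches, while the labels name no clutch or batch for these pools, and p-values measure the spread between them.

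Potassium channels are membrane proteins through which potassium ions leave or enter a cell, and they hold the resting voltage of most animal cells near the potassium equilibrium. Voltage-gated (Kv) channels open on depolarisation and end action potentials in nerve and muscle. Inward rectifiers (Kir) and two-pore channels (K2P) set the resting voltage and recycle potassium across epithelia, and calcium-activated channels open when internal calcium rises. In frog larval skin, ionocytes carry out ion transport beside multiciliated cells that drive fluid, goblet cells and small secretory cells.

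The 122 genes were 45 voltage-gated, 2 HCN, 24 inward rectifier, 18 two-pore, 14 calcium-activated or sodium-activated, and 19 auxiliary or regulatory genes. Xenopus laevis is allotetraploid, and most genes exist as a copy on the long (.L) and a copy on the short (.S) chromosome of each pair, called homeologs. The 122 genes carried 78 symbols, of which 44 had both copies and 34 had 1 copy in the table. All 122 were found in the NCBI annotation of assembly version 10.1. Values below are CPM, counts scaled by library size and TMM factors. CPM does not correct for transcript length, so sums, shares and ranks over several genes also weigh longer transcripts more.

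Library totals were between 13597538 and 22225123 counts, and 3 counts corresponded to between 0.139 and 0.251 CPM. Marker genes of several cell types differed between the groups, counted here past both thresholds of the test described below, by which 5.75% of all tested genes were higher and 20.5% lower. Of 25 tested copies of neuronal marker genes 20 were lower and 0 higher in Xenobots (median log2 fold change -7.26), with 16 of the 25 listed copies at 3 counts or fewer in every Xenobot pool and 6 at 0 in all of them. Their summed level was 91.3 to 95.8 CPM in Xenobots and 361.2 to 467.3 CPM in embryos, and syt1.L alone made up 73.4 to 81.0 CPM of the Xenobot sum. Skeletal and cardiac muscle markers were lower for 27 of 27 tested copies, with summed levels of 35.3 to 335.3 CPM in Xenobots and 9677 to 15020 CPM in embryos. Multiciliated cell markers summed to 829.2 to 930.5 CPM in Xenobots and 140.9 to 160.3 CPM in embryos, and ionocyte markers to 950.7 to 1110 CPM in Xenobots and 484.8 to 529 CPM in embryos (11 of 20 and 6 of 25 tested copies higher, 2 and 1 lower). Goblet and small secretory cell markers summed to 8028 to 9045 CPM in Xenobots and 1936 to 2670 CPM in embryos. Of their 12 tested copies 1 was higher and 1 lower, with a median log2 fold change of only 0.34. In bulk RNA, fewer cells of a type and less RNA per cell cannot be told apart. The part of these marker differences in the results on channel genes was not tested.

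A gene was tested if it exceeded 0.6 CPM in at least 3 libraries, and for this filter alone the CPM was scaled by library size without TMM factors. Of the 122 channel genes, 78 passed this filter. Of these, 27 exceeded 0.6 CPM in all 3 pools of both groups. Another 50 did so in all 3 embryo pools but not in every Xenobot pool, below called entry through the embryo pools only. The 1 other gene, kcna3.S, did so in all 3 Xenobot pools but not in every embryo pool. Most tested genes therefore entered through the group in which they were high. With limma, 5 channel genes were higher and 47 lower in Xenobots past both thresholds, an adjusted p under 0.05 and a change beyond 2 or -2 on the log2 scale. These were 6.41% and 60.3% of the tested channel genes, against 5.75% (higher) and 20.5% (lower) of all 26752 tested genes. Without the auxiliary or regulatory genes, 3 of 69 tested genes were higher and 42 lower past both thresholds. Without the fold threshold, 15 channel genes were higher (19.2%, against 29.6% of all tested genes) and 54 were lower (69.2%, against 36.2%). The median log2 fold change of the tested channel genes was -2.61, and that of all tested genes was -0.07. All 3 Xenobot pools lay above all 3 embryo pools for 15 channel genes and below them for 56. Together these were 91% of the tested channel genes, against 71.7% of all tested genes.

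Below, a gene with an adjusted p under 0.05 and a positive log2 fold change is called raised. A gene is called kept where every Xenobot pool exceeded 0.6 CPM, the 95% interval of its log2 fold change lay above -1, and it was not raised. There were 5 kept channel genes (6.41% of those tested, against 34.3% of all tested genes). Over 0.6 CPM in all 3 pools were 28 channel genes in Xenobots and 78 in embryos. At most 3 counts in every Xenobot pool were found for 53 of the 122, of which 6 were as low in the embryo pools.

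**Figure D1:**
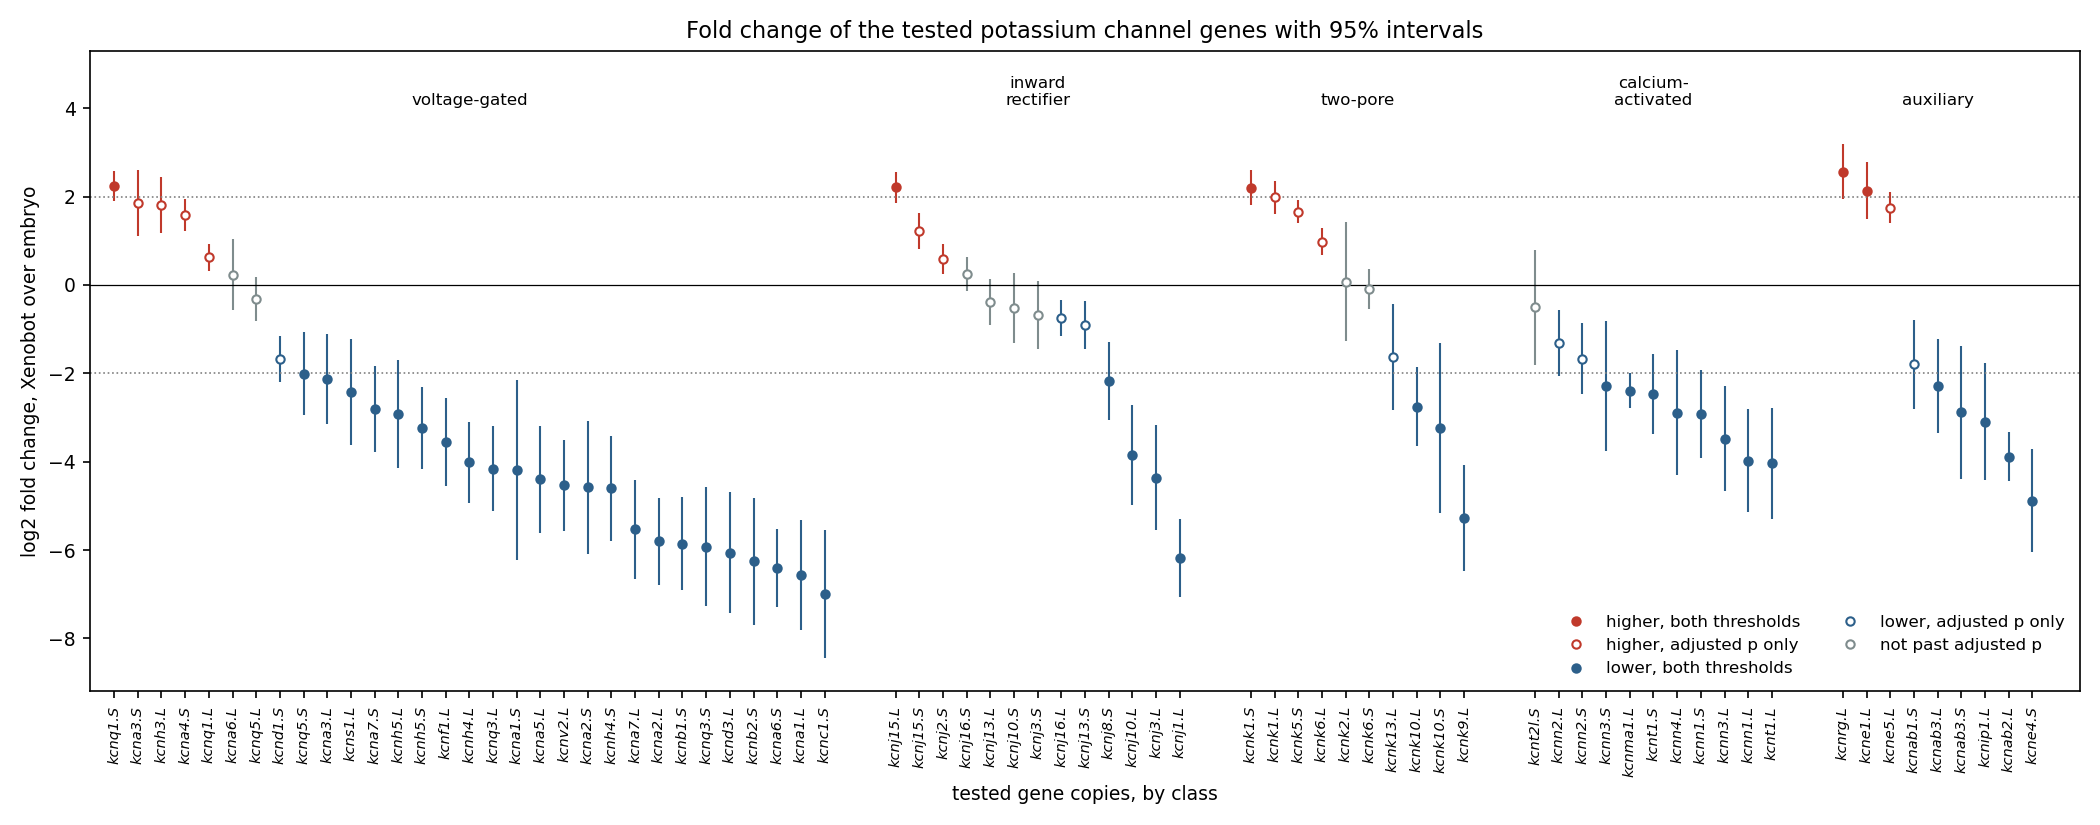
Log2 fold change, Xenobot over embryo, of 74 of the tested potassium channel genes with its 95% interval, ordered within class; filled points passed both thresholds and dotted lines mark log2 fold changes of 2 and -2. Raised genes occur in the voltage-gated (5), inward rectifier (3), two-pore (4) and auxiliary (3) classes, and the calcium-activated class has none.

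The classes differed in these counts, although the differences between classes were not tested. They also differed in how genes passed the filter. Entry through the embryo pools only held for 25 of 33 tested voltage-gated genes and 4 of 13 inward rectifiers. It held for 5 of 10 two-pore, 9 of 11 calcium- and sodium-activated and 5 of 9 auxiliary genes. Class medians and counts of lower genes also depend on this entry. Among voltage-gated genes, 33 of 45 were tested, of which 5 were raised, 2 kept and 25 lower past both thresholds (median log2 fold change -4.16). Among inward rectifiers, 13 of 24 were tested, with 3 raised, 2 kept and 4 lower past both thresholds (median -0.67). Two-pore channels had the median closest to 0, at -0.005, with 10 of 18 tested, 4 raised, 1 kept and 3 lower past both thresholds. Calcium- and sodium-activated channels had 11 of 14 tested, 0 raised, 0 kept and 8 lower past both thresholds (median -2.47). Of the auxiliary genes 9 of 19 were tested, with 3 raised, 0 kept and 5 lower past both thresholds (median -2.29).

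Summed over all 122 genes, channel transcripts came to 371.9, 395.3 and 378.8 CPM in Xenobot pools 1 to 3, against 382.5, 386.9 and 360.1 CPM in embryo pools 1 to 3. The group means were 382 ± 12.0 CPM in Xenobots and 376.5 ± 14.4 CPM in embryos (SD, n = 3 each), and the pools of the groups overlapped. The sums need no filter, but a few abundant genes weigh most in them. By class, two-pore genes summed to 80.4 ± 2.90 CPM in Xenobots and 37.4 ± 0.284 CPM in embryos, and inward rectifiers to 111.5 ± 9.08 CPM in Xenobots and 85.5 ± 3.15 CPM in embryos (SD, n = 3 each), 2.15 and 1.31 times as much in Xenobots. Every Xenobot pool lay above every embryo pool in both classes. Calcium-activated genes summed to 8.62 ± 0.687 CPM in Xenobots and 41.6 ± 5.82 CPM in embryos (SD, n = 3 each), with no overlap of pools. Voltage-gated genes summed to 141 ± 16.95 CPM in Xenobots and 156.7 ± 8.90 CPM in embryos (SD, n = 3 each), with overlapping pools. Within that class the make-up was unlike, since kcna4.S alone held 54.5% of the sum in Xenobots and 16.2% in embryos.

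**Figure D2:**
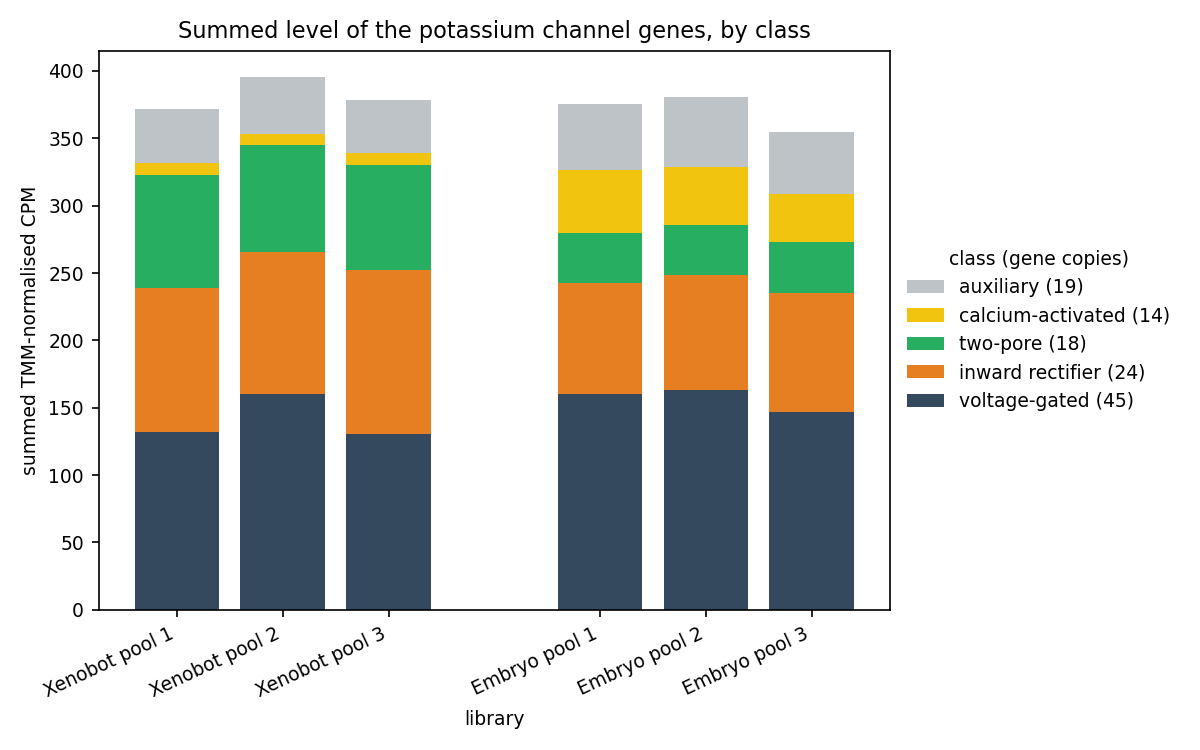
Summed TMM-normalised CPM of 120 potassium channel genes of 5 classes in each pool, Xenobot pools on the left and embryo pools on the right, stacked by class with the number of genes in brackets. The two-pore segment is larger and the calcium-activated segment smaller in every Xenobot pool.

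As a description of the same contrast that sorted them, the 15 raised genes held 83.9% of the summed channel CPM in Xenobots and 30.2% in embryos. The 47 genes lower past both thresholds held 3.62% in Xenobots and 49.8% in embryos. The 5 kept genes held 6.34% in Xenobots and 6.29% in embryos.

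**Figure D3:**
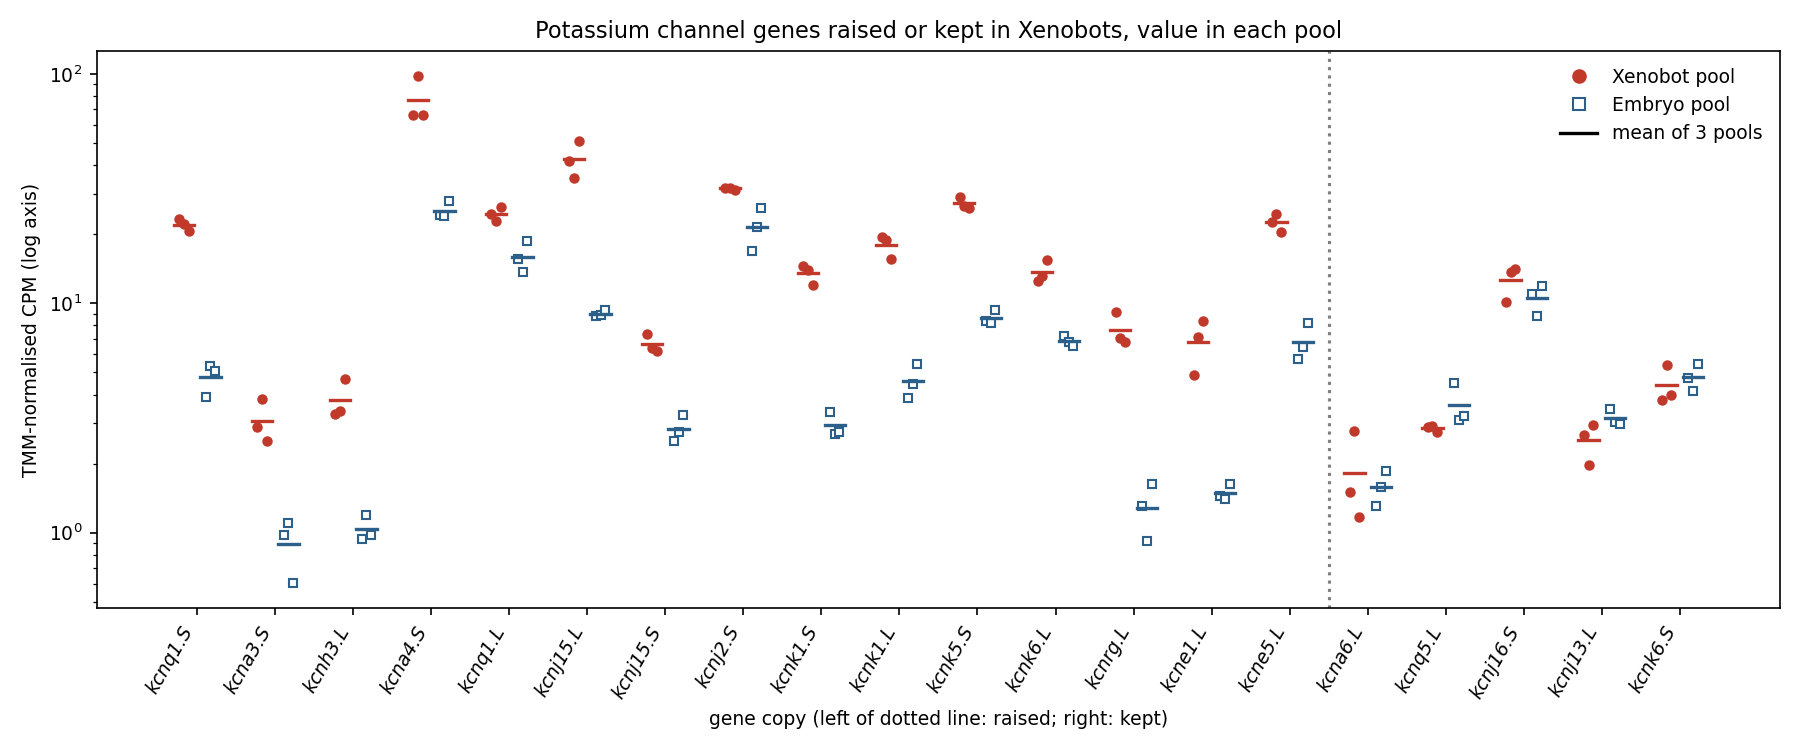
TMM-normalised CPM on a log axis of the 15 raised and the 5 kept channel genes in each pool, Xenobot pools (filled circles) left of embryo pools (open squares), with group means as bars. All 15 raised genes, selected by this same contrast, have their Xenobot pools above their embryo pools. Of all tested genes, 71.7% had the pools of the groups apart. Kcna4.S has the widest spread in CPM among Xenobot pools, 66.4 to 97.8.

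Of the voltage-gated genes, kcna4.S and both copies of kcnq1 had the highest CPM in Xenobots, a rank that also depends on transcript length. Kcna4.S, which encodes the fast-inactivating A-type subunit Kv1.4, had 66.4, 97.8 and 66.5 CPM in Xenobot pools 1 to 3, against 24.2, 24.0 and 27.8 CPM in embryo pools 1 to 3. Pool 2 was the highest Xenobot pool, and the lowest Xenobot pool still exceeded every embryo pool. The log2 fold change was 1.58 ± 0.16 (SE), with a limma adjusted p of 1.46e-05.

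KCNQ1 (Kv7.1) is a slowly opening Kv channel that, in mammals, repolarises the heart and recycles potassium in the inner ear and other epithelia, in complexes with KCNE subunits. Kcnq1.S had 23.2, 22.2 and 20.7 CPM in Xenobots, against 3.88, 5.31 and 5.07 CPM in embryos (log2 fold change 2.23 ± 0.15 SE, limma adjusted p = 1.58e-06). Among voltage-gated genes it alone was higher past both thresholds. Its homeolog kcnq1.L had 24.5, 22.9 and 26.4 CPM in Xenobots, against 15.6, 13.7 and 18.7 CPM in embryos (log2 fold change 0.62 ± 0.13 SE, limma adjusted p = 0.00232). The groups did not overlap for either copy.

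The remaining raised voltage-gated genes were kcna3.S and kcnh3.L. Kcna3.S, for the Kv1.3 subunit best known from mammalian T lymphocytes, had 2.88, 3.84 and 2.51 CPM in Xenobots, against 0.980, 1.10 and 0.604 CPM in embryos (log2 fold change 1.85 ± 0.33, SE). Kcnh3.L, for an ELK channel found mainly in mammalian forebrain, had 3.29, 3.38 and 4.69 CPM in Xenobots, against 0.934, 1.19 and 0.975 CPM in embryos (log2 fold change 1.81 ± 0.28, SE). Both passed the adjusted p threshold in limma (0.000709 for kcna3.S, 0.000266 for kcnh3.L), without overlap of the groups.

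Kcna6.L and kcnq5.L were kept. Kcna6.L, for the Shaker-type subunit Kv1.6, had 1.51, 2.77 and 1.17 CPM in Xenobots, against 1.31, 1.59 and 1.85 CPM in embryos, with a log2 fold change of 0.23 and a 95% interval from -0.57 to 1.03. Its groups overlapped. Kcnq5.L, for a subunit of the M-current family, had 2.88, 2.90 and 2.76 CPM in Xenobots, against 4.50, 3.09 and 3.23 CPM in embryos (log2 fold change -0.32, 95% interval -0.83 to 0.19). Its Xenobot pools all lay below its embryo pools, but the difference did not pass the test (limma adjusted p = 0.241).

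Among the lowest log2 fold changes of the class were those of kcnc1.S and kcna1.L. Folds are given as lower bounds of the observed ratio of means, with the Xenobot pools set to the floor of 3 counts per library. They are not confidence limits and leave out the spread between pools. Kcnc1.S, for the Kv3.1 subunit of fast-spiking neurons in mammals, had 0.206, 0 and 0 CPM in Xenobots, against 7.86, 9.32 and 6.72 CPM in embryos, at least 39.98-fold lower. Kcna1.L, for the axonal subunit Kv1.1, had 0.137, 0.0469 and 0 CPM in Xenobots, against 6.42, 9.60 and 6.99 CPM in embryos, at least 38.5-fold lower. Every Xenobot pool lay below every embryo pool for both genes, and the limma adjusted p was 8.46e-06 for kcnc1.S and 5.06e-06 for kcna1.L.

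By subfamily, 9 of 12 tested Kv1 (Shaker) genes were lower past both thresholds, beside 2 raised and 1 kept. Both Kv2 (Shab) genes were lower past both thresholds, as were the 1 tested Kv3 (Shaw) gene, 4 of 5 KCNH genes, 5 of 8 KCNQ genes and all 3 tested silent Kv genes, whose subunits form no channel alone and modify Kv2 channels. Of the Kv4 (Shal) genes, kcnd3.L was at least 39.8-fold lower, and kcnd1.S had 1.65, 1.35 and 1.66 CPM in Xenobots, against 5.08, 5.24 and 4.52 CPM in embryos (log2 fold change -1.68 ± 0.23 SE, limma adjusted p = 0.000128). Of the 11 silent Kv genes, 8 were too low to test. All 25 voltage-gated genes lower past both thresholds had entered the test through the embryo pools only. The counts by subfamily depend on this entry, and 20.5% of all tested genes were lower past both thresholds.

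Among inward rectifiers, both copies of kcnj15 and kcnj2.S were raised. KCNJ15 (Kir4.2) is an epithelial Kir subunit found in mammalian kidney. Kcnj15.L had 41.7, 35.2 and 51.0 CPM in Xenobots, against 8.82, 8.86 and 9.38 CPM in embryos (log2 fold change 2.21 ± 0.16 SE, limma adjusted p = 1.82e-06). Kcnj15.S had 7.34, 6.38 and 6.20 CPM in Xenobots, against 2.52, 2.76 and 3.25 CPM in embryos (log2 fold change 1.22 ± 0.19 SE, limma adjusted p = 0.000237). Every Xenobot pool exceeded every embryo pool for both copies, while only the .L copy passed the fold threshold.

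Kcnj2.S, for Kir2.1, the strong rectifier that stabilises the resting voltage of muscle, had 31.9, 31.9 and 31.2 CPM in Xenobots, against 16.9, 21.5 and 26.0 CPM in embryos. The embryo pools were spread more widely than the Xenobot pools, without overlap, and its log2 fold change of 0.58 ± 0.15 (SE) had a limma adjusted p of 0.00617. The 27 tested muscle marker copies were all lower in the same Xenobot pools, and which cells the kcnj2.S transcripts came from was not tested.

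The kept inward rectifiers were kcnj16.S and kcnj13.L. Kir5.1, encoded by kcnj16, forms channels together with Kir4 subunits in mammalian epithelia. Kcnj16.S had 10.1, 13.6 and 14.2 CPM in Xenobots, against 11.0, 8.83 and 11.9 CPM in embryos (log2 fold change 0.25, 95% interval -0.13 to 0.63, limma adjusted p = 0.22), with overlapping groups. In the authors' table adjusted for surrogate variables it passed the test (log2 fold change 0.65, limma adjusted p = 0.00114, with adjusted p from 0.00114 to 0.671 over its 14 alternatives). The fit to that table took no account of the variables already removed, so its adjusted p may be too small.

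Kcnj13.L, for Kir7.1, known from the retinal pigment epithelium and from zebrafish stripe patterns, had 2.68, 1.97 and 2.93 CPM in Xenobots, against 3.45, 3.03 and 2.97 CPM in embryos (log2 fold change -0.39, 95% interval -0.91 to 0.14). Its Xenobot pools all lay below its embryo pools, but the difference did not pass the test (limma adjusted p = 0.169). Its interval ended close to -1, and with scaling to total counts neither kcnj13.L nor kcnq5.L was kept, which left 3 kept genes. Kcnj13.L was also not kept when Xenobot pool 1, Xenobot pool 3, embryo pool 2 or embryo pool 3 was left out, and the 6 fits without 1 pool gave 4 to 6 kept genes. The other copy, kcnj13.S, was lower without passing the fold threshold. It had 2.81, 2.16 and 3.855 CPM in Xenobots, against 4.99, 5.995 and 4.60 CPM in embryos (log2 fold change -0.91 ± 0.24 SE, limma adjusted p = 0.00724), without overlap. Both kcnj13 copies lie inside gigyf2 genes in the annotation. Gigyf2.L was at a mean of 43.5 CPM in Xenobots and 36.7 CPM in embryos, and the sources used here do not state whether reads were counted by strand, so reads of the overlapping genes may not be separable.

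Kcnj1.L, for the renal channel ROMK, was at 0 in every Xenobot pool, against 2.24, 2.38 and 2.37 CPM in embryos, at least 11.7-fold lower (limma adjusted p = 1.11e-06). Kcnj3.L, for GIRK1, which opens on G protein signals in heart and brain, had 0.213, 0.144 and 0.597 CPM in Xenobots, against 7.01, 6.35 and 4.36 CPM in embryos (log2 fold change -4.36 ± 0.53 SE, limma adjusted p = 5.02e-05). Kcnj10.L, for the glial and renal Kir4.1, had 0.0686, 0.0478 and 0.168 CPM in Xenobots, against 2.07, 1.75 and 1.21 CPM in embryos, at least 8.42-fold lower (limma adjusted p = 8.86e-05). No Xenobot pool reached an embryo pool for any of these 3 genes.

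The .S copies of kcnj3 and kcnj10 were at 1.30 to 3.18 and at 0.892 to 2.11 CPM in Xenobots, against 2.14 to 3.32 and 1.85 to 2.79 CPM in embryos, and neither passed the test (limma adjusted p = 0.111 for kcnj3.S and 0.212 for kcnj10.S). Without Xenobot pool 1 kcnj10.S met the rule for kept genes. Kcnj3.S rested on single pools, since it passed without Xenobot pool 3 (log2 fold change -0.97, limma adjusted p = 0.0289) and without embryo pool 3 (-0.895, limma adjusted p = 0.0439), with adjusted p from 0.0289 to 0.583 over its 14 alternatives.

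Two-pore channels carry background potassium current. Genes of kcnk5, kcnk1 and kcnk6 made up the 4 raised members of the class. Kcnk5.S, for TASK-2, a channel opened by alkaline pH that serves bicarbonate transport in mammalian kidney, had 29.1, 26.7 and 26.0 CPM in Xenobots, against 8.39, 8.24 and 9.32 CPM in embryos. Its log2 fold change of 1.65 ± 0.12 (SE) had a limma adjusted p of 1.85e-06.

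Kcnk1 encodes TWIK-1, a weakly rectifying channel of low current found in many mammalian epithelia. Kcnk1.S had 14.6, 14.0 and 12.0 CPM in Xenobots, against 3.36, 2.70 and 2.74 CPM in embryos (log2 fold change 2.20 ± 0.18 SE, limma adjusted p = 3.67e-06). Kcnk1.L had 19.4, 18.9 and 15.6 CPM in Xenobots, against 3.87, 4.43 and 5.43 CPM in embryos (log2 fold change 1.98 ± 0.17 SE, limma adjusted p = 5.36e-06), just short of the fold threshold. The lowest Xenobot pool of each copy was above the highest embryo pool.

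Kcnk6, for the related TWIK-2, had 1 raised and 1 kept copy. Kcnk6.L had 12.5, 13.1 and 15.4 CPM in Xenobots, against 7.19, 6.81 and 6.53 CPM in embryos (log2 fold change 0.98 ± 0.14 SE, limma adjusted p = 0.000125). Kcnk6.S had 3.80, 5.41 and 3.99 CPM in Xenobots, against 4.71, 4.16 and 5.45 CPM in embryos (log2 fold change -0.09, 95% interval -0.54 to 0.37), with overlapping groups.

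Kcnk2.L, for the mechanically gated channel TREK-1, turned on 1 pool. It had 2.33, 0.422 and 2.01 CPM in Xenobots, against 1.17, 1.13 and 0.906 CPM in embryos, with Xenobot pool 2 below all embryo pools and Xenobot pools 1 and 3 above them. The log2 fold change was 0.07 with a 95% interval from -1.27 to 1.42. Without Xenobot pool 2 it was 1.03 (limma adjusted p = 0.0158, with adjusted p from 0.0158 to 0.969 over its 14 alternatives).

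The lowest two-pore genes were kcnk9.L and both copies of kcnk10. Kcnk9.L, for the neuronal acid-sensitive channel TASK-3, had 0, 0 and 0.0838 CPM in Xenobots, against 1.81, 1.95 and 1.61 CPM in embryos, at least 8.98-fold lower (limma adjusted p = 1.58e-05). Kcnk10 encodes TREK-2, a relative of TREK-1. Kcnk10.L had 0.343, 0.281 and 0.503 CPM in Xenobots, against 2.47, 3.45 and 2.14 CPM in embryos (log2 fold change -2.76 ± 0.40 SE, limma adjusted p = 0.000169). Kcnk10.S had 0.549, 0 and 0.335 CPM in Xenobots, against 1.55, 1.36 and 1.49 CPM in embryos (log2 fold change -3.24 ± 0.86 SE, limma adjusted p = 0.00747). The groups did not overlap for these 3 genes.

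No gene of the calcium- and sodium-activated class was raised or kept. Kcnma1.L encodes the pore of BK, the large-conductance channel opened by calcium and voltage in muscle and neurons. It had 3.91, 4.13 and 3.60 CPM in Xenobots, against 22.2, 22.4 and 17.9 CPM in embryos, without overlap. Its log2 fold change of -2.39 ± 0.18 (SE) had a limma adjusted p of 2.63e-06.

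All 7 genes of the small- and intermediate-conductance channels (SK and IK, opened by calcium through calmodulin) were tested and lower, 5 of them past both thresholds. Of the 7, 6 entered the test through the embryo pools only. Among all tested genes 36.2% were lower, and 20.5% were lower past both thresholds. Kcnn2.L was lower without passing the fold threshold, with 1.24, 0.704 and 0.838 CPM in Xenobots, against 2.77, 2.15 and 1.93 CPM in embryos (log2 fold change -1.32 ± 0.33 SE, limma adjusted p = 0.00545). Kcnn1.L had 0.137, 0.0469 and 0.189 CPM in Xenobots, against 2.86, 2.06 and 1.70 CPM in embryos, at least 11.1-fold lower (limma adjusted p = 8.18e-05). Kcnn3.L had 0.0686, 0.281 and 0.0838 CPM in Xenobots, against 2.50, 1.67 and 1.33 CPM in embryos (log2 fold change -3.48 ± 0.53 SE, limma adjusted p = 0.000239). The groups were apart for each of these 3 genes.

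Of the sodium-activated channels (Slack and Slick, the kcnt genes), kcnt1.L had 0.275, 0.0469 and 0.335 CPM in Xenobots, against 3.78, 2.62 and 2.87 CPM in embryos (log2 fold change -4.04 ± 0.56 SE, limma adjusted p = 0.000124). Kcnt2l.S did not pass the test, at 0.755, 0.281 and 2.01 CPM in Xenobots, against 1.03, 1.08 and 0.882 CPM in embryos (95% interval of the log2 fold change -1.80 to 0.80). Its Xenobot pools were spread on both sides of the embryo pools, and without Xenobot pool 2 it met the rule for kept genes.

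Among the auxiliary genes, KCNE subunits are small single-pass proteins that bind KCNQ1 and other Kv channels and alter their gating. Kcne1.L had 4.87, 7.13 and 8.38 CPM in Xenobots, against 1.45, 1.40 and 1.63 CPM in embryos (log2 fold change 2.13 ± 0.29 SE, limma adjusted p = 0.000107). Kcne5.L had 22.6, 24.6 and 20.5 CPM in Xenobots, against 5.74, 6.43 and 8.17 CPM in embryos (log2 fold change 1.75 ± 0.15 SE, limma adjusted p = 6.42e-06). Both KCNE genes and both kcnq1 copies were raised. The Xenobot pools of all 4 genes lay above their embryo pools, as for every raised channel gene.

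Kcne4.S, for another KCNE subunit, changed the other way. It had 0.137, 0.188 and 0 CPM in Xenobots, against 3.73, 3.13 and 3.25 CPM in embryos (log2 fold change -4.89 ± 0.52 SE, limma adjusted p = 2.07e-05), and the groups were apart. The remaining 2 KCNE genes were too low to test.

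Kcnrg.L had the largest log2 fold change of all tested channel genes. Its human counterpart is a soluble protein that resembles the assembly domain of Kv subunits and reduces Kv1 current. It had 9.13, 7.08 and 6.79 CPM in Xenobots, against 1.31, 0.918 and 1.63 CPM in embryos. The mean was 5.97 times as high in Xenobots (log2 fold change 2.56 ± 0.28 SE, limma adjusted p = 2.29e-05), without overlap.

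The Kv beta subunits, cytoplasmic partners of Kv1 channels, were lower for all 4 genes, of which 3 entered the test through the embryo pools only. Kcnab2.L had 1.78, 1.74 and 1.59 CPM in Xenobots, against 24.6, 29.9 and 23.5 CPM in embryos (log2 fold change -3.89 ± 0.25 SE, limma adjusted p = 1.13e-06). Kcnip1.L, for a calcium-binding partner of Kv4 channels, had 0.206, 0.188 and 0.0838 CPM in Xenobots, against 2.66, 1.57 and 0.929 CPM in embryos (log2 fold change -3.09 ± 0.59 SE, limma adjusted p = 0.00109). The lowest embryo pool of both genes was above every Xenobot pool. None of the 6 BK beta subunit genes was abundant enough to test, and in 5 of them no Xenobot pool held more than 3 counts.

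The 44 untested genes were low throughout, with at most 0.922 CPM in a Xenobot pool and 1.135 CPM in an embryo pool. Of these, 10 had more than 3 counts in some Xenobot pool. Only 4 had a higher mean in Xenobots, kcnk16.L (0.553 CPM in Xenobots, 0.212 CPM in embryos), kcng2.S, kcnk4.L and kcnmb1.S.

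Both copies were tested for 25 channel symbols, which allowed the ratio of the .L to the .S copy to be compared between the groups. The ratio differed for 12 pairs (48%, limma adjusted p under 0.05 over all pairs of the genome), against 41.1% of all 6667 homeolog pairs with both copies tested. Of these 12, 9 passed in every one of 7 alternatives (leaving out each pool, or adding 2 counts before the ratio). Of the others, kcnq5 had an adjusted p of its ratio in limma from 0.00772 to 0.077, and lost the call without embryo pool 2 or embryo pool 3. In 4 of the 12 the copies had log2 fold changes of opposite sign, although without Xenobot pool 2 kcna6.L was at -0.21, and kcnk6.S was at 0.02 without either Xenobot pool 1 or embryo pool 3. In the table adjusted for surrogate variables both of these copies also changed sign (-0.04 for kcna6.L and 0.07 for kcnk6.S).

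**Figure D4:**
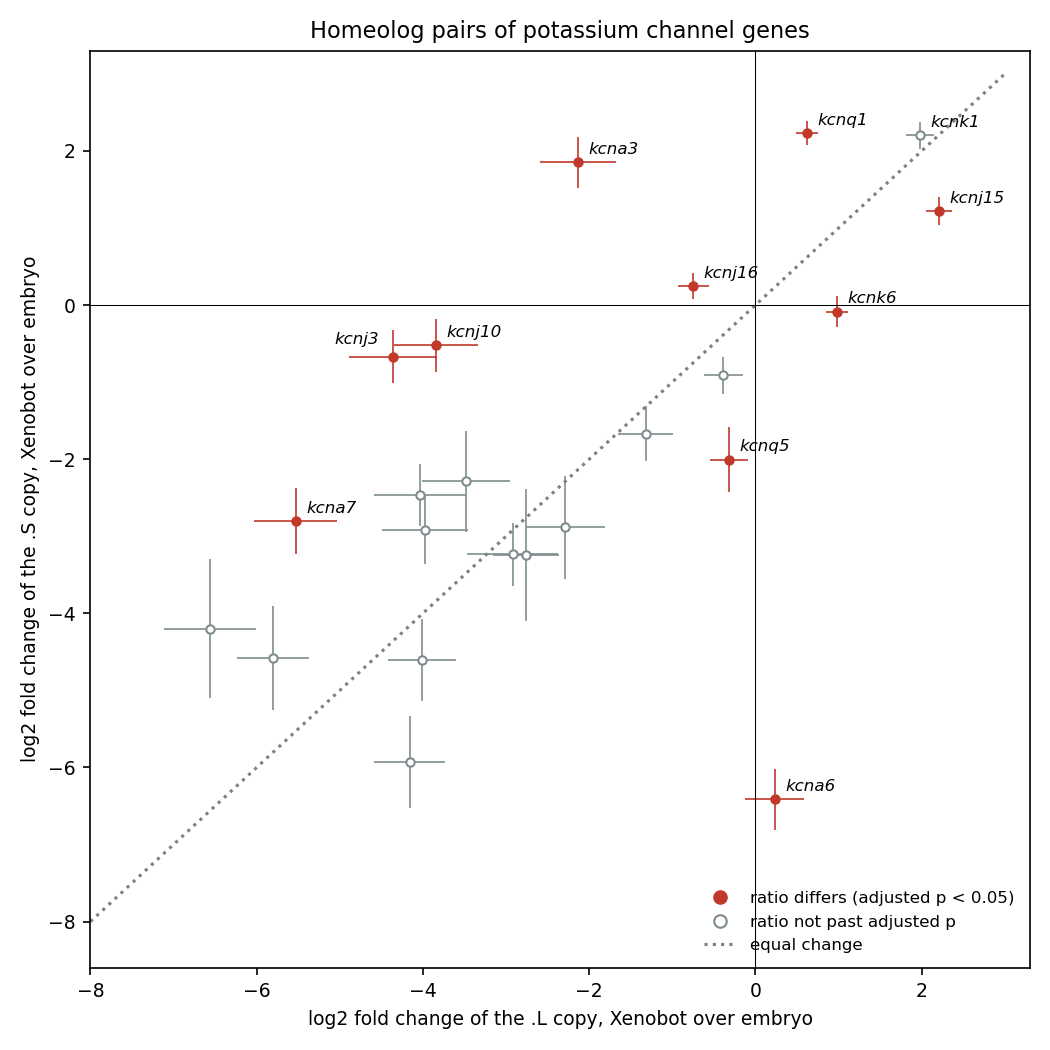
Log2 fold change, Xenobot over embryo, of the .L copy (horizontal axis) and the .S copy (vertical axis) of 23 homeolog pairs of channel genes, with standard errors; the dotted line marks equal change and filled points are the 10 pairs shown whose ratio differed. Kcna3, kcna6, kcnj16 and kcnk6 lie in the quadrants of opposite sign, and kcnk1 lies near the line.

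Kcna3 was split, with the .S copy raised (given above) and the .L copy lower at 0.208, 0.284 and 0.172 CPM in Xenobots, against 1.21, 1.50 and 0.743 CPM in embryos. The log2 ratio of .L to .S was -3.61 in Xenobots and 0.34 in embryos, a difference of -3.95 ± 0.33 (SE, limma adjusted p = 0.00019). Kcna6 was split the other way, since the .L copy was kept while the .S copy was at 0 in every Xenobot pool, against 2.94, 2.73 and 2.52 CPM in embryos, at least 13.7-fold lower (limma adjusted p of the ratio 0.000226). For both symbols, the copy that was lower was left with under 0.3 CPM in each Xenobot pool.

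The other splits were smaller. As with kcna6.L, whose 95% interval ran from -0.57 to 1.03, the sign of 1 copy was not resolved in either. Kcnj16.L was lower, at 6.96, 9.39 and 5.94 CPM in Xenobots, against 12.4, 11.3 and 14.7 CPM in embryos, beside the kept kcnj16.S, a difference in log2 ratio of -1.05 ± 0.22 (SE, limma adjusted p = 0.00846). For kcnk6 the difference was 1.11 ± 0.23 (SE, limma adjusted p = 0.00861). The kcnk1 copies differed by -0.23 in log2 ratio, with a 95% interval from -0.74 to 0.29. Near-identical copies share reads that the counting had to divide, and counts were whole (within 0.01) in 2 of 6 pools for both copies of kcna3, 4 of 6 for kcna6, 0 of 6 for kcnj16 and 1 of 6 for kcnk6. Of the raised genes with 1 copy in the table, kcna4.S, kcnk5.S and kcnj2.S had whole counts in 0 of 6 pools. Kcnh3.L, kcne1.L, kcne5.L and kcnrg.L had them in 6 of 6.

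Unequal pairs without opposite signs included the 2 raised pairs with copies of unequal size of change. The log2 ratio of .L to .S changed by 1.00 ± 0.19 for kcnj15 and by -1.59 ± 0.19 for kcnq1 (SE), with limma adjusted p of 0.00513 and 0.000843. The log2 ratio of kcnq1.L to kcnq1.S in estimated counts was 0.16 in Xenobots and 1.75 in embryos. For kcnj3 and kcnj10, where the .L copies were lower and the .S copies did not pass the test, the ratio differences were -3.67 ± 0.32 and -3.25 ± 0.60 (SE, limma adjusted p = 0.000228 and 0.00506). Counts were whole in 6 of 6 pools for both copies of kcnj15, 1 of 6 for kcnq1, 0 of 6 for kcnj3 and 2 of 6 for kcnj10.

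Some of these genes lie side by side in the annotation of assembly version 10.1. Kcna3.S (chromosome 2S, 44109524 to 44110981) is followed as the next protein-coding gene by kcna2.S (44155643 to 44164708), 44661 bases on. The first was raised and the second, for the axonal subunit Kv1.2, had 0.137, 0.0469 and 0.251 CPM in Xenobots, against 4.35, 4.78 and 2.21 CPM in embryos, at least 19.0-fold lower. On chromosome 3L the kept kcna6.L (24336612 to 24341221) is followed by kcna1.L (24434558 to 24440730) and kcna5.L (24512683 to 24572496), both lower past both thresholds. Their counterparts on 3S, kcna1.S and kcna6.S, are also next to each other and both were lower past both thresholds. On chromosome 9_10S the kept kcnj16.S (18611730 to 18652569) is followed by the raised kcnj2.S (18706818 to 18727203).

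Genes that move potassium by other means, or that accompany channels, were read from the same fit. The first list held potassium pump and cotransporter genes and the FXYD genes, for proteins that accompany the pump. Of its 28 tested copies, 10 were raised (29.6% of all tested genes were) and 16 were lower (36.2% of all were). Past both thresholds 1 was higher, against 5.75% of all tested genes, and 13 were lower, against 20.5%. Their median log2 fold change was -1.40. All tested FXYD copies (fxyd1.L, fxyd1.S, fxyd2.S, fxyd6.L and fxyd6.S) were among those lower past both thresholds. Atp1b2.L, for a beta subunit of the sodium pump, had 317, 342 and 278.9 CPM in Xenobots, against 61.7, 46.0 and 62.2 CPM in embryos (log2 fold change 2.47 ± 0.14 SE, limma adjusted p = 6.93e-07). Atp12a.L, for the proton and potassium pump of ionocytes and other epithelia, had 331, 363.5 and 373.2 CPM in Xenobots, against 105.7, 120.4 and 138.5 CPM in embryos (log2 fold change 1.56 ± 0.12, SE). The groups did not overlap for either. Of the other sodium pump beta subunit copies, atp1b3.L (-3.37), atp1b3.S (-2.76), atp1b1.S (-1.81) and atp1b1.L (-0.57) were lower on the log2 scale. Atp1b2.S was raised (0.645, with overlapping groups), and atp1b4.L did not pass the test (-0.39).

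Slc12a1.L, for the sodium, potassium and chloride cotransporter of the kidney, had 0.137, 0 and 0 CPM in Xenobots, against 33.6, 33.1 and 37.0 CPM in embryos, at least 173.3-fold lower. Of the partner subunits outside the symbol rule, 3 copies were tested and all 3 were lower past both thresholds (20.5% of all tested genes were), among them amigo1.S, a partner of Kv2 channels (0.480, 0.422 and 0.251 CPM in Xenobots, against 16.9, 15.3 and 17.5 CPM in embryos).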

How the data were processed

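RNA of 3 Xenobot and 3 embryo pools was freed of rRNA by the authors and sequenced as stranded libraries with single-end reads. Reads were trimmed by the authors with fastp, aligned with STAR to the NCBI genome (version 10.1) and assigned to genes with RSEM. The main table deposited by the authors holds the estimated counts (expected counts) that RSEM made from these reads. A second deposited table holds log2 CPM of 28009 genes after removal of surrogate-variable effects, and served only as an alternative. Its fit used group alone and took no account of the removed variables, so p-values from it may be too small.

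Groups came from the sample titles, and 0 columns belonged to other samples. Genes above 0.6 CPM, here by library size without TMM factors, in at least 3 libraries (26752) were fitted by voom and limma 3.58.1 with TMM factors from edgeR 4.0.16, under R 4.3.3. Group was the sole term, and p-values were adjusted after Benjamini-Hochberg over all tested genes. Voom took the counts as deposited, while edgeR's quasi-likelihood test and DESeq2 1.42.0 took them rounded. Homeolog ratios were fitted with limma on log2 ratios with 0.5 added to each count. A fold against a group with no pool over 3 counts was computed from that floor per library. Such folds bound the observed ratio of means and are not confidence limits. They leave out the spread between pools, and also the counting error of pools that held a few reads. The fits were checked on simulated whole counts with few changed genes and the same dispersion for every gene. That check did not cover changes mostly in the lower direction or reads divided between homeologs.

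Channel genes, classes, partner and marker lists were chosen with earlier results of these data known. The text names all genes higher past both thresholds, the 3 of each class with the highest Xenobot CPM and the 3 lowest past both thresholds, the kept genes, and homeolog pairs of opposite sign. Any other gene named was chosen after its values were seen. Channel genes under locus numbers were not analysed here. Some genes that this rule names are not reported here, although they are counted in the totals.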

Additional observations from a re-analysis of the deposited data

How the results depend on the processing

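Every raised channel gene was raised in all alternatives run on single gene copies, and no tested channel gene changed sign past the threshold. Higher genes past both thresholds numbered 5 in the main fit and 4 to 7 elsewhere, with 5 to 6 when 1 pool was left out. The 47 lower genes became 73 without the CPM filter, which tested all 122, and 31 with homeolog counts summed, which tested 54, against 42 to 47 when 1 pool was left out. Kept genes numbered 3 with total-count scaling, under which the median over all tested genes was -0.21 in place of -0.07 on the log2 scale, and 4 to 6 when 1 pool was left out. Raised genes numbered 15 to 16 and unequal homeolog pairs 9 to 13 when 1 pool was left out.

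The voltage-gated median was -3.90 with edgeR, -3.95 with DESeq2, -4.295 with total-count scaling, -3.235 without the filter, -4.44 with a mean CPM above 1, -3.44 in the deposited adjusted values, -3.67 with homeologs summed and -4.33 to -3.60 when 1 pool was left out. The inward rectifier median was -0.97 without the filter, -0.33 in the adjusted values, -0.99 with homeologs summed and -0.65 to -0.46 when 1 pool was left out. The two-pore median lay close to 0 (-0.005 in the main fit, -0.04 with RLE factors, -0.10 with total-count scaling, -0.24 with homeologs summed) and had no stable sign, at 0.197 with edgeR, 0.179 with DESeq2, 0.198 with a replicate block, -0.60 without the filter, 0.95 with a mean CPM above 1, 0.36 in the adjusted values and -0.16 to 0.36 when 1 pool was left out. The calcium-activated median was -2.63 with DESeq2, -2.59 with total-count scaling, -1.96 in the adjusted values, -2.64 with homeologs summed and -2.73 to -2.34 when 1 pool was left out. The auxiliary median was -2.85 without the filter, -2.63 with a mean CPM above 1 and -2.59 to -1.87 when 1 pool was left out. The cause of these shifts was not tested, except that filters and summing change which genes enter.

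Over single genes, 1065 values under alternatives kept their side of the adjusted p threshold, 4 passed it newly and 7 lost it. Some of the 1065 changed sign, only where neither the main fit nor the alternative passed the threshold. Kcnk13.L lost it in 5, kcnj13.S (0.0787) and kcns1.L (0.0553) in the adjusted values. Correlations of deviations were 0.061, 0.090 and 0.034 for pools with the same number, and -0.082 to 0.031 for pools with different numbers. All were small, the same-number pools had the highest, and whether the pools were paired was not tested. With a replicate block the counts were 5 higher, 45 lower and 15 raised, and the voltage-gated median was -4.02. For the homeolog ratios, adding 2 counts and leaving out single pools were alternatives chosen after seeing the data. Depth limits the lower end: 3 counts are 0.139 to 0.251 CPM, so genes at the floor in Xenobots had few or no reads at this depth, which does not show absence.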
